A study of Sus scrofa domesticus with 8 samples.

Results

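The comparison described here sets pig granulosa cells that had been plated for 144 h against the same kind of culture at 48 h. It asks what drifts after the first 48 h of culture. The comparison uses the 2 arrays of each of these times, 4 of the 8 arrays in the series, and all 27558 features of the table. The cells were taken from the ovarian follicles of 43 gilts of crossbred Landrace stock, aged 170 days and weighing 98 kg at the median. They were grown as a primary culture in DMEM with 2% fetal bovine serum, L-glutamine and antibiotics at 37 °C under 5% CO2, with no drug, transgene or hormone addition named in the labels. RNA was hybridised at 0, 48, 96 and 144 h, with 2 arrays at each time, and the 0 h and 96 h arrays serve below as levels beside the comparison. Nothing in the labels ties the paired arrays of a time to different animals, pools or dishes, so each p-value rests on array-to-array spread alone, part or all of which may be technical.

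Granulosa cells line the antral follicle and surround the oocyte. In the follicle they answer follicle-stimulating hormone and later luteinizing hormone, turn androgen into estrogen, secrete inhibin, activin and follistatin, and after ovulation become the luteal cells that make progesterone. On plastic with serum they flatten and spread, and such primary cultures are known to lose gonadotropin responsiveness while they take on features of spreading mesenchymal cells.

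Levels are given on the log2 scale of the deposited intensities, so a difference of 1 is a 2-fold change of signal. Array medians ran from 4.52 to 4.63, and lower quartiles, below which a probe set carries little signal, from 3.13 to 3.25. Because the intensities were normalised together, a shift common to nearly all genes cannot be seen, and in bulk RNA fewer cells of a type and less RNA per cell cannot be told apart. A level belongs to 1 feature, so levels of different genes are not ranked against each other. A gene is said to have risen or fallen only where its adjusted p in the limma fit over all 8 arrays was under 0.05, and every difference below is 144 h minus 48 h with its standard error (SE).

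The label of granulosa cells was set against markers that could be read. At 48 h LHCGR, the luteinizing hormone receptor, stood at 10.27 and 10.21, INHBA, the activin and inhibin beta A subunit, at 10.29 and 10.42, FST, the activin-binding protein follistatin, at 9.86 and 9.70, and GJA1, the main granulosa gap junction protein, at 11.51 and 11.52. At 144 h GJA1 was still at 11.47 and 11.28, whereas AMH, the hormone of small follicles, lay near the lower quartile at both times, at 3.12 and 3.22 and then 2.89 and 3.27. Of 9 measured granulosa markers 5 were lower at 144 h and 0 higher, with a median difference of -0.908. All 9 also belong to the pathway lists below, so this count is no separate measurement of those lists. FSHR, CYP19A1, CYP11A1, STAR, INHA, FOXL2, GATA4, MKI67 and VIM had no feature named for them alone and were not analysed here. Of 9 oocyte markers 6 lay within 0.5 of the lower quartile or below it at both times, and so did all 3 red blood cell markers.

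The arrays of 144 h were the least alike. Within a time, the array-to-array difference had an SD over features of 0.382 at 144 h, against 0.265 at 48 h, 0.249 at 0 h and 0.162 at 96 h, and the 2 arrays correlated at 0.985 at 144 h and 0.993 at 48 h. Among named genes that rose, the first 144 h array was the higher of the pair for 58.5%, and among those that fell it was the lower for 58.3%, against 46.3% and 53.7% of all named genes. The first 144 h array thus lay farther from 48 h more often than the second, and most genes below are given with both arrays. The fit shares 1 spread per feature over all times. An SE or p-value below can therefore be too small where the 144 h arrays lie far apart.

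Over all features measured, 2381 of 27558 features differed between 48 h and 144 h (8.64%), with 1190 higher at 144 h (4.32%) and 1191 lower (4.32%). A further condition of at least 2-fold left 463 higher (1.68%) and 402 lower (1.46%). The count depended on which arrays were in the fit: it was 1070 without the first 48 h array, 1231 without the second, 1576 without either 96 h array and 3879 without the first 144 h array, and 825 when the 4 compared arrays stood alone. Counted once per gene, 1140 of 10904 named genes differed (10.5%), of which 605 were higher (5.55%) and 535 lower (4.91%). These shares of named genes are the reference for every list count below. The median size was 0.90 among genes that rose and 0.84 among those that fell. Of the 605, 54 rose by at least 2 on the log2 scale and 18 by at least 3. Of the 535, 31 fell by at least 2 and 9 by at least 3. Arrays that did not overlap were common in either direction, 20.4% of features lying wholly above at 144 h and 22.9% wholly below, so such separation alone marks no gene.

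**Figure D1:**
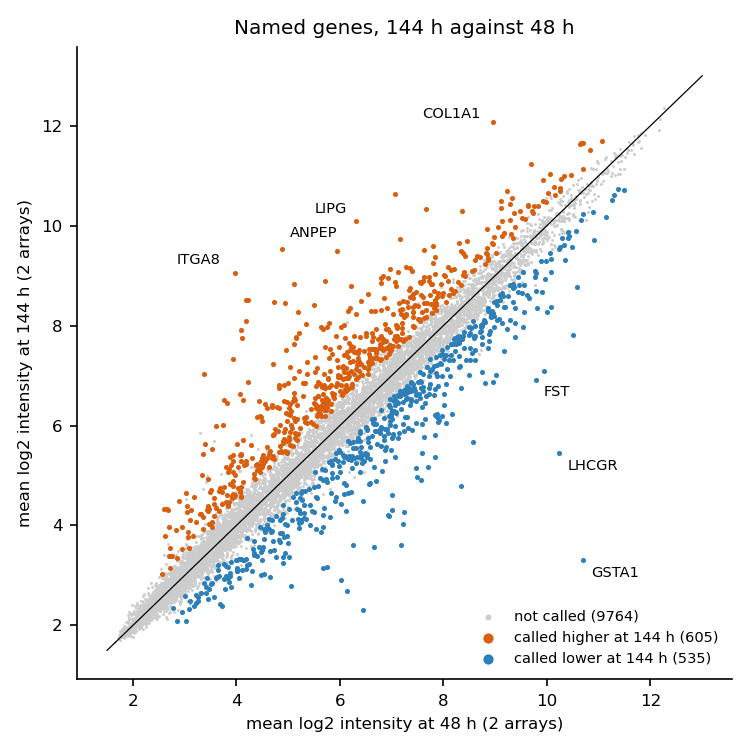
Mean log2 level of each named gene at 48 h (horizontal axis) and 144 h (vertical axis), each point 1 gene and the mean of 2 arrays, with the 605 genes that rose and the 535 that fell marked. Most genes lie along the line of equal level, while GSTA1 and LHCGR lie far below it and ITGA8 and ANPEP far above.

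The 15 largest rises are given one by one, and no theme is drawn from them. ITGA8, the alpha 8 integrin subunit of mesenchymal and smooth muscle cells, stood at 4.00 and 3.93 at 48 h and at 9.54 and 8.59 at 144 h. The difference was 5.10 ± 0.26 (SE of the fit over all 8 arrays, 2 of them per time, adjusted p = 4.58e-05, limma). ITGA8 had been 3.17 and 3.16 in the 0 h arrays and was already 8.30 and 8.35 at 96 h. ANPEP, the surface aminopeptidase CD13, rose from 4.87 and 4.89 to 9.84 and 9.21, by 4.65 ± 0.19 (adjusted p = 1.6e-05), having passed 8.22 and 8.21 at 96 h. UNC45B, a myosin chaperone of muscle, rose from 4.08 and 4.30 to 8.58 and 8.45, by 4.32 ± 0.12 (adjusted p = 4.46e-06), and its second feature rose by 2.84. COL15A1, a collagen of the basement membrane zone, went from 4.12 and 4.30 to 8.73 and 8.32, by 4.31 ± 0.15 (adjusted p = 1.25e-05). For each of these 4 genes both 144 h arrays lay more than 2-fold above both 48 h arrays, and at 96 h the level was already most of the way to that of 144 h.

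Another 6 of the 15 code for secreted or matrix proteins. LIPG, the endothelial lipase that acts on high-density lipoprotein, rose from 6.21 and 6.42 to 10.49 and 9.69 (3.78 ± 0.23, adjusted p = 0.000105), after 10.93 and 10.94 at 96 h. A2M, the broad protease inhibitor alpha-2-macroglobulin, was 4.6 and 4.84 at 48 h, 6.67 and 6.60 at 96 h and 8.83 and 8.14 at 144 h (3.76 ± 0.21, adjusted p = 6.87e-05). LTBP2, a microfibril protein, rose from 5.14 and 5.06 to 8.56 and 9.10 (3.73 ± 0.17, adjusted p = 2.71e-05). LAMA4, the laminin alpha 4 chain, started near the lower quartile at 3.21 and 3.55, was 4.58 and 4.78 at 96 h and reached 7.21 and 6.84 (3.65 ± 0.18, adjusted p = 4.43e-05). FMOD, the collagen-binding proteoglycan fibromodulin, rose from 7.06 in both 48 h arrays to 11.10 and 10.16 (3.58 ± 0.26, adjusted p = 0.000222). COL1A2, the second chain of type I collagen, rose from 6.10 and 5.80 to 10.37 and 8.61, and the 1.76 between its 144 h arrays gave it a larger error (3.54 ± 0.47, adjusted p = 0.00308). LAMA4 thus gained most after 96 h, A2M gained in both intervals, and LIPG and LTBP2 were at their highest at 96 h.

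The other 5 of the 15 largest rises follow. ANKRD1, a muscle ankyrin repeat protein and a common YAP target, went from 3.98 and 4.18 to 7.39 and 8.45 (3.84 ± 0.31, adjusted p = 0.00036), below its 96 h levels of 9.39 and 9.28. NTRK3, the neurotrophin-3 receptor, went from 4.08 and 4.14 to 7.72 and 7.79 (3.65 ± 0.10, adjusted p = 4.46e-06), and its second feature rose by 4.21. CDH11, the cadherin of mesenchymal cells, rose from 4.80 and 5.06 to 9.18 and 7.72 (3.52 ± 0.39, adjusted p = 0.00143). TMEM255A, a transmembrane protein, rose from 3.98 and 3.90 to 8.30 and 6.37, the widest gap between 144 h arrays among the 15, at 1.93 (3.39 ± 0.51, adjusted p = 0.00573). The gene listed as LOC100513296 rose from 4.06 and 4.30 to 8.64 and 7.53 (3.91 ± 0.31, adjusted p = 0.000371). In 12 of the 15 the first 144 h array was the higher, with a median gap of 0.80 between the pair, and none of the 15 calls was lost when any single array was left out.

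**Figure D2:**
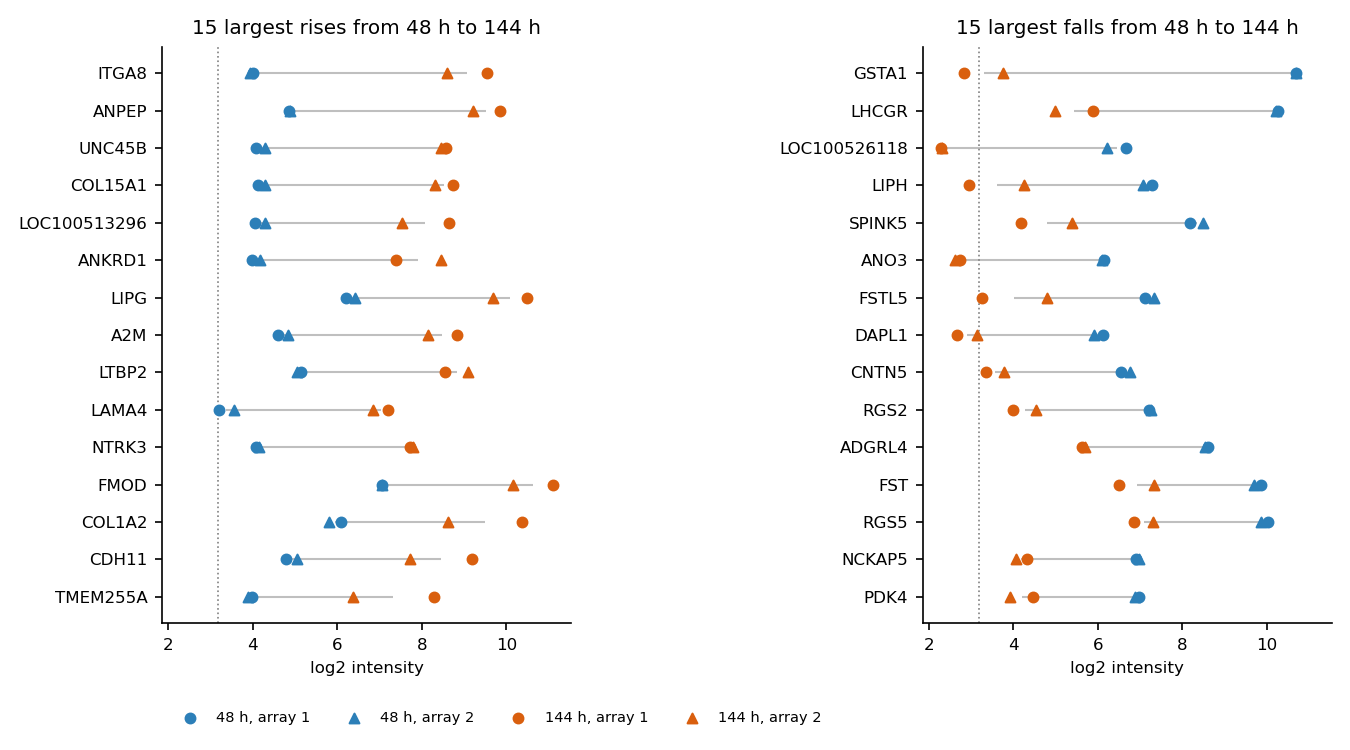
Log2 intensity (horizontal axis) of the 15 largest risers and 15 largest fallers at 48 h (blue) and 144 h (orange), circles for the first array and triangles for the second, with a grey line between the means of the times and the dotted line at the mean lower quartile. The points of the times are apart for all 30 genes because that separation was part of the rule that chose them, and the 144 h points are the more scattered, as for TMEM255A and FSTL5.

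The deepest fall was that of GSTA1, an alpha class glutathione transferase that is abundant in steroid-making cells and whose class also isomerises steroid intermediates. It stood at 10.69 and 10.70 at 48 h, after 11.69 and 11.68 at 0 h, and at 2.84 and 3.76 at 144 h, a difference of -7.39 ± 0.26 (SE; adjusted p = 1.25e-05). Its second feature fell by 6.47. Most of this loss was in place by 96 h, at 4.02 and 4.30, and the 144 h arrays lay around the lower quartile. LHCGR kept its starting level of 10.38 and 10.40 through 48 h, at 10.27 and 10.21, and then fell to 5.39 and 4.89 at 96 h and 5.89 and 4.99 at 144 h (-4.80 ± 0.28, adjusted p = 8.03e-05). FST fell from 9.86 and 9.70 to 6.51 and 7.32 (-2.87 ± 0.23, adjusted p = 0.000393), its 96 h arrays lying lower still at 5.83 and 5.78.

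Some of the other large falls continued a decline that had begun before 48 h. DAPL1, a small death-associated protein-like gene, was 10.87 and 10.83 at 0 h, 6.12 and 5.91 at 48 h and 2.67 and 3.14 at 144 h (-3.11 ± 0.16, adjusted p = 4.91e-05). RGS2, a regulator that shortens G protein signals, was 9.09 and 9.10 at 0 h, 7.21 and 7.26 at 48 h and 3.99 and 4.55 at 144 h (-2.96 ± 0.17, adjusted p = 8.03e-05). PDK4, the kinase that turns pyruvate dehydrogenase off, was 8.07 and 8.33 at 0 h, 6.98 and 6.88 at 48 h and 4.48 and 3.92 at 144 h (-2.73 ± 0.19, adjusted p = 0.00021). These 3 were lower at 48 h than at 0 h in both arrays and lower again at 144 h. NCKAP5 stood at 6.91 and 6.98 at 48 h, as at 0 h with 6.97 and 6.91, and at 4.32 and 4.06 at 144 h (-2.75 ± 0.12, adjusted p = 2.45e-05). The gene listed as LOC100526118 went from 6.67 and 6.22 to 2.30 and 2.32, below the lower quartile (-4.14 ± 0.16, adjusted p = 1.6e-05).

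Another set had its highest level at 48 h and lost it afterwards. LIPH, a phosphatidic acid phospholipase, was 2.50 and 2.32 at 0 h, 7.29 and 7.07 at 48 h, 2.82 and 2.84 at 96 h and 2.95 and 4.26 at 144 h (-3.57 ± 0.35, adjusted p = 0.000864). SPINK5, a serine protease inhibitor of epithelia, was 3.85 and 4.13 at 0 h, 8.18 and 8.50 at 48 h, 4.63 and 4.59 at 96 h and 4.19 and 5.40 at 144 h (-3.54 ± 0.34, adjusted p = 0.000774). FSTL5, a secreted follistatin-like protein, went from 3.0 and 3.52 at 0 h to 7.11 and 7.33 at 48 h and back to 3.26 and 4.81, with 1.55 between the last pair (-3.18 ± 0.43, adjusted p = 0.00329). The first 144 h array of each of these 3 was close to its 0 h arrays, and the second lay higher. ANO3, a membrane protein of the anoctamin family, went from 6.15 and 6.11 to 2.75 and 2.62 (-3.44 ± 0.12, adjusted p = 1.25e-05), and CNTN5, a contactin adhesion molecule, from 6.54 and 6.77 to 3.36 and 3.79 (-3.08 ± 0.16, adjusted p = 4.91e-05). ADGRL4, an adhesion receptor best known in endothelium, went from 8.61 and 8.53 to 5.62 and 5.70 (-2.91 ± 0.11, adjusted p = 1.6e-05). RGS5, a G protein regulator known from pericytes, went from 10.03 and 9.86 to 6.86 and 7.31 (-2.86 ± 0.19, adjusted p = 0.000146). Of 7 endothelial markers 1 fell (14.3%, beside 4.91% of named genes). It was FLT1, a receptor for vascular endothelial growth factor, from 4.03 and 3.98 to 3.17 and 3.02 (-0.91 ± 0.14, adjusted p = 0.0068). Without the first 48 h array FLT1 was not called, with a difference of -0.89. The mean level of the 7 was 3.73 and 3.74 at 48 h and 3.55 and 3.73 at 144 h, with VWF, the clotting factor of endothelium, at 3.81 and 3.64 and then 3.86 and 4.11, and the part of endothelial cells in the fall of ADGRL4 was not tested. Among the 15 largest falls the first 144 h array was the lower in 11, and 6 genes ended within 0.5 of the lower quartile, where a further fall could not be read.

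**Figure D3:**
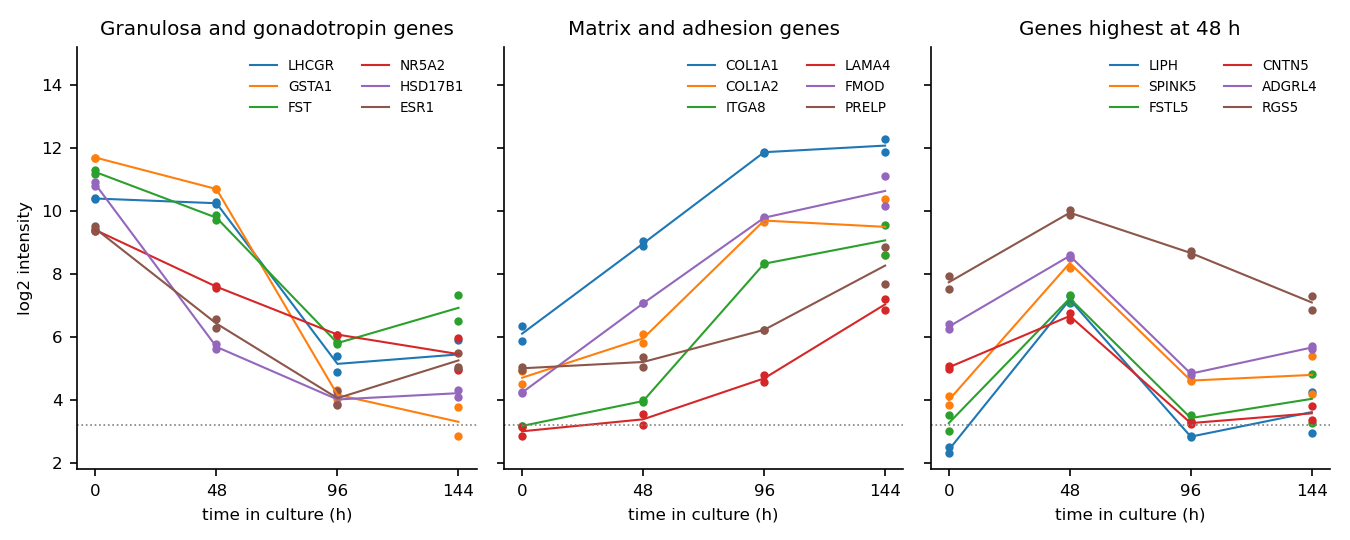
Log2 intensity (vertical axis) against time in culture in hours for granulosa and gonadotropin genes, matrix and adhesion genes, and genes highest at 48 h, with each array as a point, the line through the mean of the 2 arrays, and the dotted line at the mean lower quartile of the arrays. GSTA1 and LHCGR drop between 48 h and 96 h, ITGA8 and COL1A1 climb over the same interval, and LIPH and SPINK5 peak at 48 h.

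The genes of granulosa identity and gonadotropin response moved in a single direction where they moved. Of 19 measured members 10 fell and 0 rose, against 4.91% and 5.55% of all named genes, and their median difference was -0.677 beside 0.00385 for all named genes. Their mean level was 7.32 in both 48 h arrays and 6.37 and 6.44 at 144 h. NR5A2, the nuclear receptor LRH-1 that drives steroid and ovulation genes, was 9.37 and 9.41 at 0 h, 7.62 and 7.55 at 48 h and 4.95 and 5.96 at 144 h (-2.13 ± 0.27, adjusted p = 0.0027). HSD17B1, the enzyme that makes estradiol from estrone, had lost most of its signal earlier, from 10.78 and 10.90 at 0 h to 5.60 and 5.76 at 48 h, and ended at 4.32 and 4.10 (-1.47 ± 0.14, adjusted p = 0.000828). INHBA fell from 10.29 and 10.42 to 9.10 and 9.52 (-1.04 ± 0.15, adjusted p = 0.00442), and AMHR2, the AMH receptor, from 6.43 and 6.33 to 5.32 and 5.62 (-0.91 ± 0.13, adjusted p = 0.00457). When the 4 compared arrays stood alone these last 2 were not called (adjusted p = 0.0507 and 0.0524).

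In the same list, ESR1, estrogen receptor alpha, went from 6.28 and 6.56 to 5.03 and 5.47 (-1.17 ± 0.20, adjusted p = 0.0105), and its 3 other features fell by 0.78, 0.76 and 0.49. KITLG, the granulosa ligand for the oocyte's KIT receptor, was 6.18 and 6.11 at 48 h, 6.66 and 6.70 at 96 h and 5.27 and 4.04 at 144 h (-1.49 ± 0.33, adjusted p = 0.0295). Both calls leaned on single arrays: without the second 48 h array the adjusted p of ESR1 was 0.0787, and that of KITLG was 0.149 without the first 48 h array, 0.124 without the second, 0.0559 without either 0 h array and 0.0631 without either 96 h array. With 1 array omitted the count of members that fell lay between 7 and 10. NR5A1, WT1 and ESR2 did not pass the test, and the arrays of the features used overlapped between the times. NR5A1, the steroidogenic factor 1, was 7.94 and 7.93 and then 7.64 and 8.02 (-0.10 ± 0.14), WT1, a transcription factor of gonadal somatic cells, was 6.94 and 6.88 and then 6.84 and 7.17, and ESR2, estrogen receptor beta, was 4.00 and 4.50 and then 4.72 and 4.46. The second feature of NR5A1 lay wholly lower at 144 h (-0.41 ± 0.12, adjusted p = 0.0778) and that of WT1 wholly higher (0.23 ± 0.14, adjusted p = 0.415), neither passing the test.

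Steroid synthesis genes were mixed: of 18 measured members 7 fell and 3 rose, with a median of -0.173. FDXR, which passes electrons to the mitochondrial steroid hydroxylases, fell from 5.49 and 5.36 to 4.51 and 4.32 (-1.01 ± 0.12, adjusted p = 0.00181), and was 7.85 and 7.78 before plating. HSD3B1, which completes progesterone synthesis, had risen from 3.62 and 3.17 at 0 h to 10.42 and 10.29 at 48 h, and was 9.81 and 9.91 at 144 h, a difference that did not pass the test (-0.50 ± 0.16, adjusted p = 0.104). SCARB1, the receptor that takes up cholesterol from high-density lipoprotein, was 9.41 and 9.35 and then 9.74 and 9.16, so the arrays of the feature used overlapped. Another feature of SCARB1 lay wholly higher, at 8.16 and 8.21 and then 8.52 and 8.33, without passing the test (0.24 ± 0.12, adjusted p = 0.306). The 3 members that rose, TSPO, STARD4 and NPC2, handle cholesterol transport inside the cell, but NPC1, the membrane partner of NPC2 in moving cholesterol out of lysosomes, fell from 9.34 and 9.04 to 8.12 and 8.61 (-0.83 ± 0.18, adjusted p = 0.0252). The call of NPC1 was lost without any 0 h, 48 h or 96 h array, with adjusted p values of 0.0522 to 0.161. NPC2 went from 10.10 and 10.15 to 10.74 and 10.82 (0.65 ± 0.10, adjusted p = 0.00679), and TSPO from 6.21 and 6.09 to 6.75 and 7.17 (0.81 ± 0.18, adjusted p = 0.0324). None of the 3 calls of a rise held without the first 48 h array, where the adjusted p was 0.0545 for NPC2, 0.117 for TSPO and 0.221 for STARD4. TSPO and STARD4 were not called without the second 48 h array either (0.161 and 0.149) or without either 96 h array (0.0701 and 0.0953), nor TSPO without the second 144 h array (0.0887) and STARD4 without either 0 h array (0.0888). The count of members that fell dropped from 7 to 3 without either 48 h array or either 96 h array, and to 4 without either 0 h array.

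Of 23 genes of ovulation and luteinization 5 fell (21.7%, beside 4.91% of named genes) and 2 rose (8.7%, beside 5.55%). PTGFR, the receptor through which prostaglandin F2 alpha acts on the corpus luteum, had risen from 7.23 and 6.99 at 0 h to 10.53 and 10.63 at 48 h, and fell back to 8.79 and 8.74 at 144 h (-1.82 ± 0.12, adjusted p = 0.000146). PTGES, a prostaglandin E synthase, fell from 6.81 and 6.90 to 5.53 and 5.90 (-1.14 ± 0.14, adjusted p = 0.0025). EDN1, the vasoconstrictor endothelin 1, rose from 5.18 and 5.11 to 7.46 and 8.09 (2.62 ± 0.31, adjusted p = 0.0019). PTGS2, the inducible cyclooxygenase of ovulation, lay near the lower quartile at both times, at 2.84 and 2.95 and then 2.93 and 3.24. SHAS2, the hyaluronan synthase of the expanding cumulus, was 7.49 and 7.52 at 48 h and 8.96 and 7.96 at 144 h and did not pass the test (0.95 ± 0.27, adjusted p = 0.0756). The other rise, that of ABCA1, a cholesterol exporter, by 0.72 ± 0.14 (adjusted p = 0.0149), was not called without the first 48 h array (0.0958) or the second (0.0732). The count of members that fell was 3 without either 48 h array or either 96 h array, and 4 rose without the second 144 h array.

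Among 31 genes of cyclic AMP and G protein signalling 3 rose and 3 fell, 9.68% each way, beside 5.55% and 4.91% of named genes. PDE3A, a phosphodiesterase that breaks down cyclic AMP, rose step by step from 2.82 and 3.05 at 0 h to 5.67 and 5.59 at 48 h, 6.90 and 6.83 at 96 h and 7.75 and 8.19 at 144 h (2.34 ± 0.16 from 48 h, adjusted p = 0.000186). PDE4A, of a second phosphodiesterase family, rose from 4.70 and 4.69 to 5.93 and 5.67 (1.10 ± 0.12, adjusted p = 0.00158). Both thus ended above every 48 h array, while the regulators RGS2 and RGS5, given above, fell. The other calls were of ADCY3, an adenylyl cyclase (-1.15 ± 0.27, adjusted p = 0.0378), and PRKG1, the cyclic GMP-dependent kinase (1.08 ± 0.22, adjusted p = 0.022). ADCY3 was not called without the first 48 h array (adjusted p = 0.194), the second (0.122), either 0 h array (0.0734) or either 96 h array (0.0796), and PRKG1 not without the first 48 h array (0.0834), the second (0.132) or either 96 h array (0.0516). Without the second 144 h array 5 members fell.

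**Figure D4:**
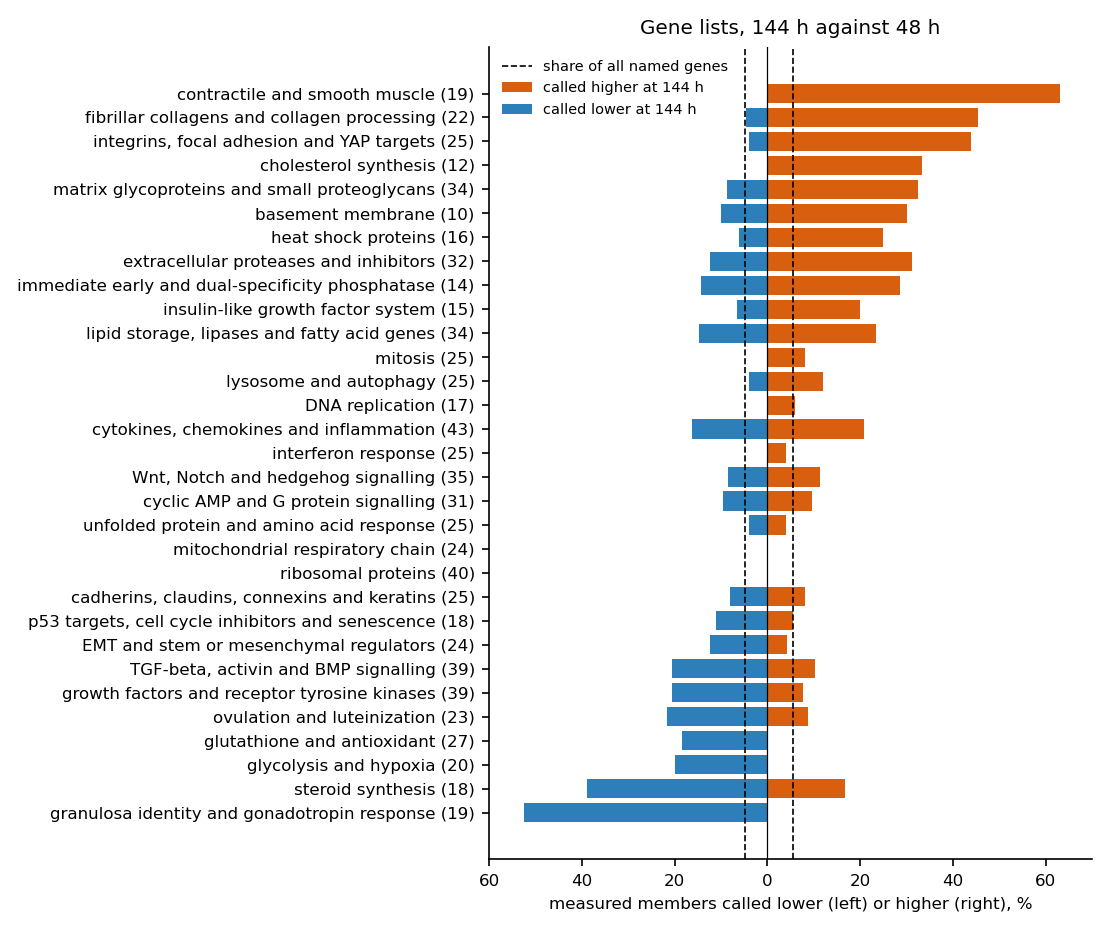
Percent of the measured members of each gene list that rose (to the right) or fell (to the left) between 48 h and 144 h, with the shares of all named genes, 5.55% and 4.91%, as reference lines. The contractile, collagen and adhesion lists extend to the right and the granulosa identity list to the left, and the ribosomal and respiratory chain lists have no call.

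Many collagens and collagen-processing enzymes rose. Of 22 measured members 10 rose and 1 fell, with a median difference of 0.30, and the count of rises lay between 8 and 11 with 1 array omitted. The fall, of COL6A3, a type VI collagen chain, was not called without any 48 h or 96 h array or the first 144 h array, where its adjusted p lay between 0.0652 and 0.174. COL1A1, the main chain of type I collagen, was 5.88 and 6.33 at 0 h, 8.89 and 9.04 at 48 h, 11.85 and 11.88 at 96 h and 12.28 and 11.86 at 144 h (3.10 ± 0.19 from 48 h, adjusted p = 0.000102), and its other features rose by 2.73 and 2.70. COL3A1, of the fibrillar type III collagen, rose from 6.18 and 6.25 to 9.01 and 8.59 (2.59 ± 0.15, adjusted p = 8.03e-05). Both thus climbed with each time sampled except that the second 144 h array of COL1A1 stood at its 96 h level. COL11A1, a minor fibrillar chain, rose by 2.14 ± 0.25 (adjusted p = 0.0019), and COL8A1, a short-chain collagen of vessel walls, by 2.00 ± 0.14 (adjusted p = 0.000179). LOXL4, a lysyl oxidase that crosslinks collagen, rose from 5.11 in both 48 h arrays to 7.17 and 6.72 (1.84 ± 0.15, adjusted p = 0.000424). COL14A1, which decorates fibrils, rose from 7.38 and 7.32 to 8.75 and 8.77 (1.41 ± 0.12, adjusted p = 0.000436). LOX, the founding lysyl oxidase, had already gone from 5.24 and 5.20 at 0 h to 11.26 and 11.32 at 48 h, and at 144 h it stood at 11.48 and 11.43 (0.17 ± 0.10, adjusted p = 0.433).

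Of 34 matrix glycoproteins and small proteoglycans 11 rose and 3 fell, with a median of 0.113. PRELP, a leucine-rich proteoglycan that anchors basement membrane, stayed at 5.03 and 5.37 at 48 h beside 4.95 and 5.05 at 0 h, and reached 8.84 and 7.69 at 144 h (3.07 ± 0.32, adjusted p = 0.00108). LUM, the collagen-binding proteoglycan lumican, rose from 7.78 and 7.54 through 8.60 and 8.65 at 96 h to 10.53 and 10.15 (2.68 ± 0.17, adjusted p = 0.000117). DCN, decorin, rose from 9.71 and 9.65 to 11.31 and 11.17 (1.55 ± 0.12, adjusted p = 0.00028), although its 96 h arrays were at 9.30 and 9.35. All 3 proteoglycans, like FMOD, were thus highest at 144 h. FBN1, the microfibril protein fibrillin 1, rose by 1.96 ± 0.20 (adjusted p = 0.000992), while FBN2, its fetal relative, fell from 5.01 and 5.04 to 3.25 and 3.48 (-1.66 ± 0.16, adjusted p = 0.000842). FN1, fibronectin, had gone from 5.52 and 5.60 at 0 h to 10.73 and 10.68 at 48 h, and rose further to 11.81 and 11.51 (0.96 ± 0.13, adjusted p = 0.00308). POSTN, periostin, was 10.18 and 10.11 at 48 h and 9.93 and 10.16 at 144 h, with overlapping arrays (-0.10 ± 0.13), after 3.46 and 3.68 at 0 h. The count of falls was 1 without either 48 h array and 5 without the second 144 h array.

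Markers of fibroblasts and stroma moved with these lists. Of 9 measured markers 7 rose, under every omission of 1 array as well, and 0 fell, or 1 without the second 144 h array, and their mean level went from 6.36 and 6.35 to 8.46 and 8.09. The set shares 6 of its 9 genes with the collagen and matrix lists, so its count is no separate measurement of them. THY1, a surface glycoprotein of fibroblasts that is in neither of those lists, rose from 4.90 and 5.03 to 8.07 and 6.96 (2.55 ± 0.31, adjusted p = 0.00226). PDGFRB, the platelet-derived growth factor receptor beta, was 7.38 and 7.32 and then 6.89 and 7.05 and did not pass the test (-0.37 ± 0.11, adjusted p = 0.0843, and 0.0438 without the second 144 h array), and its 0 h level was 4.68 and 4.62. The part of a change in cell makeup in the matrix results was not tested.

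Of 10 basement membrane genes COL15A1, LAMA4 and NID2 rose (30%, beside 5.55% of named genes) and LAMA2 fell (10%, beside 4.91%). LAMA2, the laminin alpha 2 chain, was 9.58 and 9.56 at 0 h, 6.69 and 7.0 at 48 h and 5.61 and 5.97 at 144 h (-1.05 ± 0.16, adjusted p = 0.00587, and 0.0561 with the 4 compared arrays alone). NID2, a nidogen that links laminin to collagen, rose from 5.28 and 5.43 to 7.79 and 6.76 (1.91 ± 0.30, adjusted p = 0.00666), with an adjusted p of 0.0585 without the first 48 h array. One laminin alpha chain thus fell while another rose. Of 32 extracellular proteases and inhibitors 10 rose and 4 fell, and without either 48 h array 5 rose. CTSK, the collagen-cutting cathepsin K, rose from 7.66 and 7.60 to 9.48 and 9.53 (1.88 ± 0.12, adjusted p = 0.000106). ADAM19, a membrane metalloprotease, rose by 1.75 ± 0.12 (adjusted p = 0.00021), PLAU, urokinase, by 1.52 ± 0.13 (adjusted p = 0.000475) and MMP2, gelatinase A, by 1.37 ± 0.12 (adjusted p = 0.00047). In the other direction MMP16, a membrane-bound metalloprotease, fell from 8.35 in both 48 h arrays to 6.89 and 6.63 (-1.59 ± 0.12, adjusted p = 0.000305). The other 3 falls were of MMP3, MMP9 and MMP13, none of which was called without the first 48 h array (adjusted p = 0.156, 0.0502 and 0.0805). Without the second 48 h array MMP3 and MMP9 were not called (0.155 and 0.0796), nor was MMP3 without any 0 h or 96 h array or the second 144 h array (0.071, 0.107 and 0.069).

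Among the pathway lists the contractile one showed the largest share of rises, 12 of 19, with 0 falls and a median difference of 0.625. With 1 array omitted 9 to 12 rose. CNN1, the smooth muscle protein calponin, was 4.72 and 4.43 at 0 h, 7.06 and 7.27 at 48 h and 10.01 and 9.48 at 144 h (2.58 ± 0.19, adjusted p = 0.000253). SMTN, smoothelin, rose from 6.15 and 6.24 to 8.36 and 8.34 (2.16 ± 0.11, adjusted p = 4.43e-05), and MYLK, the kinase that activates myosin, from 6.87 and 6.81 to 8.44 and 8.64 (1.70 ± 0.13, adjusted p = 0.000269). TAGLN, transgelin, had made most of its climb before 48 h, from 5.89 and 6.02 to 10.64 and 10.62, and added 1.00 ± 0.11 to reach 11.57 and 11.68 (adjusted p = 0.00156). ACTA2, smooth muscle actin, likewise went from 7.86 and 7.78 at 0 h to 10.79 and 10.54 at 48 h and 11.70 and 11.60 at 144 h (0.98 ± 0.12, adjusted p = 0.00258). For CNN1, SMTN, TAGLN and ACTA2 both 144 h arrays lay above both 48 h arrays. MYL9, CALD1 and TPM2, for myosin light chain, caldesmon and beta tropomyosin, rose by 1.22, 1.15 and 0.93. Of 5 smooth muscle or pericyte markers, ACTA2, CNN1 and CSPG4 rose and RGS5 fell, and their mean level was 7.45 and 7.35 at 48 h and 7.87 and 8.04 at 144 h. CSPG4, the NG2 proteoglycan, rose by 1.54 ± 0.18 (adjusted p = 0.00169). The part of contractile cells of another kind was not tested.

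Of 25 integrins, focal adhesion proteins and YAP targets 11 rose and 1 fell, with a median of 0.334. The count of rises was 7 without the second 48 h array and 14 without the first 144 h array. ITGA5, the fibronectin receptor chain, rose from 6.95 and 6.98 to 9.47 and 8.79 (2.16 ± 0.20, adjusted p = 0.000757). ITGA11, a fibrillar collagen receptor chain, rose from 6.91 and 6.93 to 8.98 and 8.94 (2.04 ± 0.11, adjusted p = 5.36e-05), a level it had reached at 96 h with 8.99 and 8.98. FLNC, the actin crosslinker filamin C, rose from 4.48 and 4.40 to 6.55 and 6.45 (2.06 ± 0.11, adjusted p = 5.08e-05), and ITGB3, the beta 3 integrin, by 0.95 ± 0.12 (adjusted p = 0.0025). The fall was that of ITGA4, a leukocyte and mesenchymal integrin chain, from 7.45 and 7.74 at 48 h and 8.82 in both 96 h arrays to 6.61 and 5.46 (-1.56 ± 0.32, adjusted p = 0.0208). It was not called without the first 48 h array (adjusted p = 0.0829) or the second (0.127).

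In the TGF-beta, activin and BMP list 8 of 39 fell and 4 rose, and 2 of the falls, INHBA and FST, are given above. The count of falls was 13 without the second 144 h array, 5 without the first 48 h array, 4 without the second and 5 without either 96 h array, and that of rises was 2 without either 0 h array and 1 without any 48 h or 96 h array. ID1 and ID4, inhibitors of helix-loop-helix factors and common BMP targets, fell from 6.96 and 6.99 to 5.24 and 5.78 (-1.46 ± 0.17, adjusted p = 0.00179) and from 5.04 and 5.42 to 4.17 and 4.34 (-0.98 ± 0.15, adjusted p = 0.00543). CHRDL1, a secreted BMP antagonist, rose from 6.51 and 6.71 to 7.75 and 7.97 (1.25 ± 0.13, adjusted p = 0.00108), short of its 0 h level of 8.98 and 9.10. GREM1, another BMP antagonist, was 5.98 and 6.28 and then 9.06 and 7.09 and did not pass the test (1.94 ± 0.51, adjusted p = 0.0567). The secreted antagonists FST and CHRDL1 thus went opposite ways, and with the 4 compared arrays alone ID4 was not called (adjusted p = 0.0566).

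Of 35 Wnt, Notch and hedgehog genes 4 rose (11.4%, beside 5.55% of named genes) and 3 fell (8.57%, beside 4.91%). FZD2, a Wnt receptor, rose from 5.94 and 6.23 to 7.88 and 8.15 (1.93 ± 0.18, adjusted p = 0.000727), whereas FZD3, of the same family, fell from 7.53 and 7.74 to 6.02 and 6.24 (-1.5 ± 0.14, adjusted p = 0.000739). LGR4, an R-spondin receptor, fell from 8.84 and 8.66 to 7.36 and 6.77 (-1.68 ± 0.19, adjusted p = 0.0016), after 10.33 and 10.51 at 0 h. LEF1, a nuclear effector of Wnt signals, fell from 4.74 and 5.22 to 3.86 and 3.72 (-1.19 ± 0.17, adjusted p = 0.00412). SFRP2, a secreted Wnt modulator, went from 3.31 and 4.04 at 0 h to 9.27 and 9.17 at 48 h and on to 10.69 and 10.68 (1.47 ± 0.21, adjusted p = 0.00442). The other 2 rises were SFRP1, a relative of SFRP2, and HEY2, a Notch target, neither called without the first 48 h array (adjusted p = 0.149 and 0.1) or the second (0.123 and 0.058), nor SFRP1 without either 0 h array (0.0601) or either 96 h array (0.061). The count of rises was 2 without either 48 h array, and that of falls was 7 without the second 144 h array.

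Of 15 genes of the insulin-like growth factor system IGF1, IGFBP4 and IGFBP7 rose (20%, beside 5.55% of named genes) and STC1 fell (6.67%, beside 4.91%). IGF1, a growth factor that granulosa cells make themselves, was 10.15 and 10.16 at 0 h, 7.16 and 7.02 at 48 h and 9.31 and 8.29 at 144 h (1.71 ± 0.28, adjusted p = 0.00776), a partial return, with an adjusted p of 0.0506 without the first 48 h array and 0.0591 without the second. IGFBP4, the binding protein that PAPP-A cleaves, was 7.22 and 7.35 at 0 h and 5.88 and 5.69 at 48 h. It ended at 8.28 and 7.81 at 144 h, above both of its 0 h arrays (2.26 ± 0.17 from 48 h, adjusted p = 0.000241). STC1, stanniocalcin 1, an inhibitor of that cleavage, peaked at 48 h with 9.14 and 9.19 and fell to 7.23 and 7.77 (-1.66 ± 0.17, adjusted p = 0.00106). With the 4 compared arrays alone IGFBP7 was not called (0.0596), and without the second 144 h array 4 members fell.

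Among 39 growth factors and receptor tyrosine kinases 8 fell (20.5%, beside 4.91% of named genes) and 3 rose (7.69%, beside 5.55%). ANGPT2, angiopoietin 2, a ligand of the vessel receptor TIE2, fell from 5.60 and 5.91 to 3.17 and 3.16, the lower quartile (-2.59 ± 0.13, adjusted p = 4.46e-05). EFNB2, the ligand ephrin B2, fell from 8.11 and 7.99 to 5.73 and 6.37 (-2.00 ± 0.21, adjusted p = 0.00107), and TGFA, an EGF receptor ligand, from 6.82 and 6.93 to 5.01 and 5.57 (-1.59 ± 0.19, adjusted p = 0.00187). ROR2, a Wnt5a receptor of mesenchyme, rose from 5.28 and 4.96 to 8.01 and 7.27 (2.52 ± 0.23, adjusted p = 0.000627). These 4 were apart between the times and kept their calls with any array omitted. The count of falls was 3 without the first 48 h array, and that of rises was 1 without either 48 h array and 6 without the second 144 h array.

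Cell division genes were called about as often as named genes in general. Of 25 mitosis genes ANLN and CENPA rose and 0 fell, a share of 8% beside 10.5% of named genes, and of 17 DNA replication genes CCNE1 rose, a share of 5.88%. TOP2A, the topoisomerase of dividing cells, had dropped from 9.26 and 9.14 at 0 h to 6.33 and 6.62 at 48 h, and was 6.66 and 6.14 at 144 h, with overlapping arrays (-0.07 ± 0.18, adjusted p = 0.884). CCNE1, cyclin E1, rose from 5.48 and 5.51 to 6.65 and 6.26 (0.96 ± 0.15, adjusted p = 0.00631), with an adjusted p of 0.0517 without the first 48 h array, ANLN of 0.0543 without that array and 0.0551 without the second 48 h array, and CENPA of 0.0552 to 0.124 without any 48 h or 96 h array or the second 144 h array. Without the first 144 h array 4 mitosis genes fell. Of 18 p53 targets, cell cycle inhibitors and senescence genes 1 rose (5.56%, beside 5.55% of named genes) and 2 fell (11.1%, beside 4.91%). CCND2, cyclin D2, which follicle-stimulating hormone induces in granulosa cells, rose from 9.39 and 9.35 to 10.40 and 10.09 (0.88 ± 0.13, adjusted p = 0.00479), short of 10.91 and 10.90 at 0 h, and had an adjusted p of 0.057 with the 4 compared arrays alone. CDKN1A, the p21 inhibitor, was 8.96 and 9.04 and then 8.80 and 8.43 (-0.39 ± 0.15, adjusted p = 0.169), and CDKN2B, the p15 inhibitor, was 5.25 and 5.81 and then 6.76 and 6.30 (1.00 ± 0.26, adjusted p = 0.0569), neither passing the test. The falls were of the p18 inhibitor CDKN2C and the kinase PLK2, and the first was lost without the first 48 h array (adjusted p = 0.0579), the second without any 48 h or 96 h array or the first 144 h array (0.0673 to 0.177).

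Lipid genes were read in a pair of lists. Of 12 cholesterol synthesis genes 4 rose and 0 fell, with a median of 0.788, and the count of rises was 8 without the second 144 h array. TM7SF2, a sterol reductase, rose from 6.21 and 6.06 to 7.51 and 7.41 (1.33 ± 0.12, adjusted p = 0.000504), and INSIG1, which holds back the sterol-sensing pathway, from 5.14 and 5.43 to 6.80 and 6.36 after 8.09 and 8.20 at 96 h (1.30 ± 0.17, adjusted p = 0.00277). Of 34 genes of lipid storage and fatty acids 8 rose and 5 fell. PLIN2, the coat protein of lipid droplets, had risen from 7.17 and 7.29 at 0 h to 8.93 and 9.10 at 48 h and fell to 6.78 and 7.26 (-1.99 ± 0.17, adjusted p = 0.000515), back to its starting level. APOE, apolipoprotein E, had a like course, from 5.74 and 5.65 to 7.30 and 7.34 and back to 5.85 and 6.07 (-1.36 ± 0.12, adjusted p = 0.000504). FABP3, a fatty acid carrier, rose from 8.12 and 8.07 to 9.39 and 8.95 (1.07 ± 0.16, adjusted p = 0.00494). The count of lipid storage rises was 3 without the first 48 h array and 2 without the second, and that of falls was 3 without the first 48 h array.

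Of 27 glutathione and antioxidant genes 5 fell and 0 rose. Beside GSTA1, GSTA4, of the same transferase class, fell from 10.97 and 10.87 at 48 h to 9.86 and 9.56 (-1.21 ± 0.14, adjusted p = 0.00177), having been 8.18 and 8.35 at 96 h. GCLC, the catalytic subunit that limits glutathione synthesis, fell from 8.82 and 8.67 to 7.73 and 7.83 (-0.96 ± 0.12, adjusted p = 0.00204), after 10.56 and 10.68 at 0 h. Its partner subunit GCLM fell by 0.74 ± 0.15 (adjusted p = 0.0183), with an adjusted p of 0.122 without the first 48 h array, and PRDX2, a peroxiredoxin, by 0.65 ± 0.11 (adjusted p = 0.00827), with 0.0617 without the second. Of 20 glycolysis and hypoxia genes 4 fell and 0 rose, among them PDK4 and PFKP, the platelet phosphofructokinase (-0.73 ± 0.11, adjusted p = 0.00597, and 0.064 with the 4 compared arrays alone). The glycolysis count was 2 without any 0 h, 48 h or 96 h array, and 2 antioxidant genes rose without the first 144 h array. In limma 0 of 24 respiratory chain genes and 0 of 40 ribosomal protein genes passed the test, with 4 and 1 at an unadjusted p under 0.05.

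Of 16 heat shock genes 4 rose (25%, beside 5.55% of named genes) and 1 fell (6.25%, beside 4.91%), with a median difference of -0.07. The fall, of DNAJA1, was not called without any 0 h, 48 h or 96 h array (adjusted p of 0.0548, 0.125 and 0.0792). HSPB6, a small heat shock protein of smooth and heart muscle, rose from 6.49 and 6.60 to 9.02 and 8.24 (2.08 ± 0.25, adjusted p = 0.00195). HSPB8, its relative in chaperone-assisted autophagy, rose from 3.99 and 4.29 to 5.04 and 5.37 (1.07 ± 0.15, adjusted p = 0.00399), and BAG3, the co-chaperone it binds, from 6.54 and 6.62 to 7.38 and 7.34 (0.79 ± 0.11, adjusted p = 0.00354). Each of these 3 lay wholly above its 48 h arrays, and HSPB8 was highest at 96 h, at 6.59 and 6.64. Of 25 genes of the unfolded protein response and of amino acid stress 8% were called, beside 10.5% of named genes. DDIT4, a stress-induced brake on mTOR, fell by 1.19 ± 0.16 (adjusted p = 0.00305) and VLDLR, a lipoprotein receptor, was the only rise. Other features of VLDLR lay higher at 144 h by 0.39 and 0.40 and did not pass the test (adjusted p = 0.179 and 0.0631). VLDLR was not called without either 48 h array, either 96 h array or the second 144 h array (adjusted p between 0.0653 and 0.18), and without the first 144 h array 4 members fell, without the second 3. Of 25 interferon response genes (4% called) OAS2, an antiviral RNA sensor, alone rose, from 6.29 and 6.38 to 7.19 and 7.23 (0.88 ± 0.11, adjusted p = 0.00229), having been 8.16 and 8.26 at 0 h. Without the second 144 h array 3 interferon genes rose and 2 fell, and without the first 2 rose and 1 fell.

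Of 43 cytokine, chemokine and inflammation genes 9 rose (20.9%, beside 5.55% of named genes) and 7 fell (16.3%, beside 4.91%). VCAM1, an adhesion molecule for leukocytes that stromal cells also carry, was 3.98 and 4.32 at 0 h, 6.83 and 6.76 at 48 h, 8.24 and 8.23 at 96 h and 9.01 and 8.68 at 144 h (2.05 ± 0.16, adjusted p = 0.000292). ICAM1, a relative, rose from 4.94 and 5.15 to 6.42 and 6.18 (1.25 ± 0.14, adjusted p = 0.0016), CXCL16, a membrane chemokine, from 7.34 and 7.36 to 8.56 and 8.59 (1.23 ± 0.12, adjusted p = 0.000906), and C1S, a complement protease, from 2.98 and 3.10 to 4.39 and 4.14 (1.23 ± 0.16, adjusted p = 0.00314). TNFRSF11B, the decoy receptor osteoprotegerin, fell from 4.83 and 4.98 to 3.34 and 3.39 (-1.54 ± 0.12, adjusted p = 0.000358). CXCL2, a neutrophil chemokine, fell from 6.80 and 6.99 to 5.22 and 5.93 (-1.32 ± 0.21, adjusted p = 0.00769). It was not called with the 4 compared arrays alone (adjusted p = 0.062), nor without the second 48 h array, where its difference was -1.22. Another feature of CXCL2 carried the same values as the feature used, so it is no separate reading. The remaining features differed by -1.44 and -0.42, the latter with overlapping arrays and not called (adjusted p = 0.511). The count of rises was 6 without the first 48 h array and 5 without the second, and that of falls was 4 without either 48 h array and 12 without the second 144 h array.

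Of 15 markers of macrophages and leukocytes 2, FCER1G and TYROBP, fell and 0 rose, a share of 13.3% beside 10.5% of named genes called either way. The mean level of the 15 was 4.66 and 4.82 at 48 h and 4.00 and 4.47 at 144 h. FCER1G, an Fc receptor adaptor of myeloid cells, was 6.64 and 6.82 at 0 h, 5.89 and 6.16 at 48 h, 3.55 and 3.97 at 96 h and 3.69 and 5.16 at 144 h (-1.60 ± 0.41, adjusted p = 0.0488). The 144 h arrays differed by more than 1 for this gene, and the count of markers that fell was 6 without the second 144 h array, 3 without the first, 0 without the second 48 h array and 1 without the first 48 h array or any 0 h or 96 h array. FCER1G was not called without any 0 h, 48 h or 96 h array, with adjusted p values of 0.0886, 0.154, 0.213 and 0.085 without a 0 h array, the first 48 h array, the second and a 96 h array, and TYROBP not without the first 48 h array (0.0917) or the second (0.106). Of these 15 markers 4 lay within 0.5 of the lower quartile or below it at both times. For C1QB, a complement gene of this list, the feature used was not called. Another feature of C1QB fell from 4.49 and 4.68 to 2.93 and 3.28 (-1.48 ± 0.14, adjusted p = 0.000803). The part of leukocytes in the chemokine results was not tested.

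Immediate early genes and phosphatases gave counts that no omission left alone: of 14, 4 rose and 2 fell, but 0 rose without the first 48 h array, 1 rose without the second or without any 0 h or 96 h array, 2 rose and 6 fell without the second 144 h array, 6 rose without the first, and 0 fell without either 48 h array. EGR1, a growth-induced zinc finger factor, shows the spread, at 10.17 and 10.09 at 48 h and 9.02 and 10.21 at 144 h (-0.51 ± 0.32, adjusted p = 0.44). No direction is given for that list. Lysosome and autophagy genes rose in 12% and fell in 4%, beside 5.55% and 4.91% of named genes. Of 25 lysosome and autophagy genes 3 rose and 1, NPC1, fell, and the counts were 0 and 0 without the first 48 h array and 1 and 0 without the second or without any 0 h or 96 h array.

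Of 25 cadherins, claudins, connexins and keratins CDH11 and DSP rose and CDH2 and EPCAM fell, 8% each way, beside 5.55% and 4.91% of named genes. CDH2, the N-cadherin of the granulosa layer, went from 10.01 and 9.94 to 9.37 and 9.22 (-0.68 ± 0.13, adjusted p = 0.0166) while CDH11 rose. CDH2 had an adjusted p of 0.107 without the first 48 h array and 0.0728 without the second, DSP, desmoplakin, of 0.0895 and 0.0883, and EPCAM, an epithelial adhesion molecule, of 0.0686 and 0.125, with 0.0636 without either 96 h array. Without the second 144 h array 6 members fell. KRT19, a keratin of simple epithelia, was 8.82 and 8.55 at 48 h and 6.46 and 8.39 at 144 h and did not pass the test (-1.26 ± 0.52, adjusted p = 0.214). Of 24 regulators of mesenchymal fate 3 fell (12.5%, beside 4.91% of named genes) and 1 rose (4.17%, beside 5.55%). SNAI2, a repressor of epithelial genes, fell from 8.16 and 8.43 to 7.31 and 7.48 (-0.90 ± 0.13, adjusted p = 0.00436), its 0 h level, and MEIS2, a homeobox factor, from 7.63 and 7.98 to 6.79 and 6.42 (-1.20 ± 0.16, adjusted p = 0.00343). SOX9, a factor of Sertoli and cartilage cells, fell by 0.86 ± 0.14 (adjusted p = 0.00885), with 0.0679 without the second 48 h array. PRRX1, a mesenchymal homeobox factor, rose from 7.41 and 7.30 to 9.86 and 8.43 (1.79 ± 0.38, adjusted p = 0.0244), with 0.115 and 0.127 without the first or second 48 h array and 0.0535 without either 96 h array. Without the second 144 h array 6 of these regulators fell. With the 4 compared arrays alone neither SNAI2 nor SOX9 was called, each with an adjusted p of 0.054.

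Theca cells, the androgen-making layer outside the follicle wall, were looked for with 5 markers. CYP17A1, their defining enzyme, lay at or below the lower quartile at both times, at 2.49 and 2.79 and then 2.70 and 2.88, and INSL3, their peptide hormone, at 4.29 and 4.22 and then 4.05 and 4.27, with overlapping arrays. ANPEP, the surface marker given above, rose and LHCGR fell, so the 5 markers did not move together, and their mean level was 5.17 and 5.16 at 48 h and 5.21 and 5.07 at 144 h. Of 5 markers of the ovarian surface 0 passed the limma test, 1 having an unadjusted p under 0.05.

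**Figure D5:**
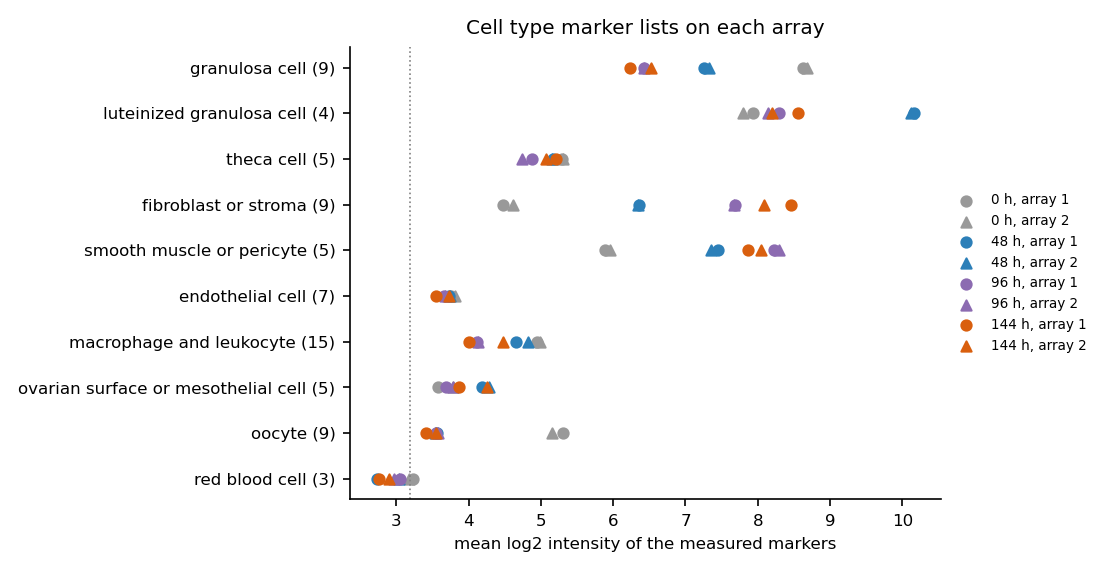
Mean log2 intensity of the measured markers of each cell type (horizontal axis), with the number of markers in parentheses, colour for the time in culture, circles for the first array and triangles for the second, and the dotted line at the mean lower quartile of the arrays. The fibroblast markers sit higher at 144 h than at 48 h (8.46 and 8.09 against 6.36 and 6.35) and the granulosa markers lower (6.23 and 6.52 against 7.26 and 7.32), while the endothelial and oocyte markers lie near the quartile line at both times.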

How the data were processed

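The table gave 1 value per feature and array, log2 intensities that the authors had produced with RMA, per the submitters' processing notes, with the program and its parameters not given in the sources used here. The platform was an Affymetrix whole-transcript array hybridised with biotin-labelled target, per the labels' protocols. Arrays were grouped by the time in their titles. R 4.3.3 and limma 3.58.1 fitted 1 mean per time to all 8 arrays (4 residual degrees of freedom), with two-sided moderated tests of 144 h against 48 h and Benjamini-Hochberg adjustment over 27558 features. The procedure was tested on simulated data with the same spread at every time, so that test does not cover the wider spread at 144 h. The number of arrays limits the precision; the median SE was 0.143.

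A feature was named where the platform annotation gave 1 distinct symbol (11974 features, 10904 genes); 373 had several and 15211 none. Of a gene's features the one with the highest mean over 8 arrays was used. Named were the 15 largest called rises and falls with arrays apart, the members of largest difference in each of 31 lists and 10 marker sets, and a fixed set of ovarian genes. Members outside that rule that are named to complete a count were chosen after their values were seen. Comparison, lists and sets were chosen with earlier results of these data known. Alternatives were scaling, a filter on dim features, the variance model, the arrays fitted, the replicate number as a block, the threshold, and each array omitted. No promoter or protein sequence was used here.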

Additional observations from a re-analysis of the deposited data

How the results depend on the processing

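Median centring, quantile normalisation, cyclic loess, a filter on dim features and a trended robust variance model left the counts of features that differed, rose and fell within 1.5 times their values, and no scaling moved the share of rises by over 10 points. Array quality weights gave 1517 features that differed and 723 lower ones, the 4 compared arrays alone 825, with 436 higher and 389 lower, and a fit without the 96 h arrays 1576, with 764 lower. One feature per named gene, adjusted over those genes alone, gave 1451, with 750 and 701. An adjusted p under 0.01 gave 1120, with 576 and 544, and the 2-fold condition 865, with 463 and 402. With 1 array omitted the count ran from 1070 to 3879, that of rises from 540 to 1880 and that of falls from 530 to 1999; where this leaves 1 array at a time, that array is assumed to vary like the others. Of 152 genes described as risen or fallen 106 kept their call in every setting that was checked gene by gene, and 0 changed direction. That check left out the fit of 1 feature per named gene, the stricter threshold and the 2-fold condition. It also did not cover genes that the filter on dim features removed. With the 4 compared arrays alone 42 of the 152 lost their call. Among genes not called, the difference changed sign with 1 array omitted for TOP2A (-0.34 to 0.19), AMH (-0.29 to 0.09), NR5A1 (-0.29 to 0.09), EGR1 (-1.11 to 0.08), INSL3 (-0.21 to 0.01), POSTN (-0.21 to 0.01), SCARB1 (-0.22 to 0.36) and WT1 (-0.07 to 0.27). The shared replicate numbers do not pair the arrays by any label: the differences between numbered arrays correlated at 0.188 between 48 h and 144 h, and a fit with the replicate number as a block called 2321 features, 1154 higher and 1167 lower, holding 91.2% of the calls made without it. Signal near the lower quartile limits what can be read of further falls.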

Other observations

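Genes outside the lists, chosen after their values were seen, add to the description. BMPER, a secreted BMP modulator, was 4.66 and 4.64 at 0 h, 7.01 and 7.02 at 48 h, 4.95 and 4.91 at 96 h and 4.33 and 4.27 at 144 h, a fall of -2.71 ± 0.10 on the log2 scale from 48 h (SE; adjusted p = 1.6e-05, limma), so that it belongs with the genes that peaked at 48 h. HAPLN1, which links hyaluronan to proteoglycans in the cumulus matrix, had a like course, at 5.68 and 5.67 at 48 h and 2.86 and 3.44 at 144 h (-2.52 ± 0.19, adjusted p = 0.000292). C7, a terminal complement component, was level until 48 h, at 6.42 and 6.54 and then 6.30 and 6.22, and fell to 3.23 and 3.97 (-2.66 ± 0.22, adjusted p = 0.000386). AEBP1, a collagen-binding matrix protein, rose from 5.70 and 5.71 to 9.24 and 8.54 (3.18 ± 0.20, adjusted p = 0.000127), and ENPP1, which makes pyrophosphate outside the cell, stayed at 6.83 and 6.85 at 48 h and 6.88 and 6.71 at 96 h and then rose to 9.04 and 8.96 (2.16 ± 0.12, adjusted p = 5.08e-05). AGTR1, the angiotensin II receptor, rose from 7.57 and 7.23 to 9.28 and 8.91 (1.70 ± 0.20, adjusted p = 0.00184), after 3.17 and 3.62 at 0 h.

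For SLA-DRA and VSIG4 the first 144 h array was the lower of the pair. SLA-DRA, a class II histocompatibility chain, was 7.07 in both 48 h arrays, 3.50 and 3.41 at 96 h and 4.74 and 6.02 at 144 h (-1.69 ± 0.35, adjusted p = 0.0209), and VSIG4, a macrophage complement receptor, was 4.21 and 4.36 at 48 h, 2.39 and 2.38 at 96 h and 2.40 and 3.20 at 144 h (-1.48 ± 0.25, adjusted p = 0.00868). Without the first 48 h array the adjusted p was 0.114 for SLA-DRA and 0.0521 for VSIG4, and without the second 0.105 and 0.0658.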
